A study of Mus musculus with 7 samples.

Results

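Endothelial surface proteins are described here through 10 genes that were listed by name: Calcrl, Ramp2, Eng, S1pr1, Pecam1, Icam2, Esam, Emcn, Vwf and Thbd. They were 10 of 16593 named genes on the array, which carried 11 probes for them among 25697 in all, with 2 probes for Pecam1 and 1 for each of the others. Only probes seen above background (detection p under 0.01) in 3 or more of the 7 samples were tested, which kept 10 of the 11 member probes, 9 of the 10 genes, and 11902 probes of the array. The gene left untested was S1pr1.

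The study compared whole lungs of male mice aged 3 to 4 months on Illumina MouseRef-8 v2 bead arrays, with 3 claudin-18 knockout and 4 wild-type samples. In the knockout, CMV-cre had recombined a floxed Cldn18 allele (Cldn18F/F) throughout the body and so deleted exons 2 and 3, so the loss was not confined to the epithelium that makes claudin-18. The strain background of both genotypes mixed Balb/c, C57BL/6J and 129S6/SvEvTac, no treatment is named, and the labels do not say whether the wild-type mice carried Cre. No label ties an array to 1 animal, so the p-values measure the spread between these samples.

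Endothelial cells line the blood vessels and make up a large share of the cells of the lung, whose alveolar wall is mostly capillary. Their surface receptors read signals that tighten the vessel wall, among them adrenomedullin, sphingosine 1-phosphate and ligands of the TGF-beta family. Their adhesion molecules hold neighbouring cells together and guide leukocytes across, and thrombomodulin and von Willebrand factor work on clotting from opposite sides. Many endothelial genes are read by ETS-family transcription factors, which bind a GGAA core.

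The upstream promoter sequence of 3 of the 10 genes was found in the RefSeq promoter table, and these are shown because the genes differ in how far they changed. Each line gives the 250 bases before the annotated start on the gene's own strand, with every GGAA, or TTCC where the core lies on the other strand, in capitals. The sequences are from build GRCm38.p6, at chr2:84425267-84425516 on the minus strand for Calcrl, chr2:32646345-32646594 on the plus strand for Eng and chr3:137340828-137341077 on the plus strand for Emcn.
Calcrl: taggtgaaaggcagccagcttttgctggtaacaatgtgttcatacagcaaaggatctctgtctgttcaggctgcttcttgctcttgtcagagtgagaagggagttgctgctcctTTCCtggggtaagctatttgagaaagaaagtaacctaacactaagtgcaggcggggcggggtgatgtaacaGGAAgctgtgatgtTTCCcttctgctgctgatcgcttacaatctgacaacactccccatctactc
Eng: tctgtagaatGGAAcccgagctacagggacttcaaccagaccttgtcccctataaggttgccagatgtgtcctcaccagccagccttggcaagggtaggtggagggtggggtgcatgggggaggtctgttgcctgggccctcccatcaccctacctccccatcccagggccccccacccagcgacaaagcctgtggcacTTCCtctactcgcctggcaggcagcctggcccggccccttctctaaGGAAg
Emcn: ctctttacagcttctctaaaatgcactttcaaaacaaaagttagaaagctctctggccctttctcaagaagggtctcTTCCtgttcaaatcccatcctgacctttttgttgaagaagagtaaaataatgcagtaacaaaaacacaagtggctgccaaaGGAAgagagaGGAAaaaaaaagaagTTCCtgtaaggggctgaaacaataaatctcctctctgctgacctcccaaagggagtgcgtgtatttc
The core stood 3 times before Calcrl, 3 times before Eng and 4 times before Emcn, and 93.4% of 32851 promoters of this length held it on either strand. The longer CAGGAA, which contains that core, or its reverse complement, stood 2 times before Calcrl, 2 times before Emcn and 0 times before Eng, against 25.7% of all promoters with at least 1 match. GATAA, the core bound by GATA factors, had no match on either strand of the 3 windows, and 22.6% of all promoters held it. These matches are letters in a window and were not tested as binding sites.

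All arrays lay on 1 slide, with the knockout at positions A, B and D and the wild type at E to H, so position and genotype cannot be told apart. The knockout arrays were dimmer, with a median signal of 308 ± 45.6 (SD, n = 3) against 411 ± 58.6 (SD, n = 4) in the wild type and an exact two-sided permutation p of 0.0857. Levels below are therefore background-corrected, quantile-normalized log2 signals, and the number of arrays limits the precision. The targeted gene checked the labels: Cldn18 changed by -3.71 (SE 0.19, limma adjusted p = 4.2e-05), and all 3 knockout arrays lay below all 4 wild-type arrays. Over the array, 1056 of 11902 probes passed an adjusted p of 0.05, 584 lower (4.91%) and 472 higher (3.97%) in the knockout.

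Of the endothelial surface genes, Calcrl, Eng, Pecam1, Vwf and Thbd were lower in the knockout past the threshold. The falls ran from 1.84-fold for Thbd to 2.38-fold for Eng where the probe was detected on all arrays. Calcrl was fitted at 3.47-fold, but 2 of its 3 knockout arrays were not above background, and with the authors' values its change (-0.55) was smaller than that of Vwf (-0.92) or Thbd (-0.86). Emcn, Ramp2, Esam and Icam2 also had estimates below 0, between 1.51-fold and 1.19-fold, but did not pass. S1pr1, the receptor through which sphingosine 1-phosphate tightens the endothelial barrier, was not measured above background. In numbers, 5 of 9 tested genes were lower and 0 higher, where 5.11% of all 8537 tested genes were lower and 3.68% higher. By probe, 6 of 10 were lower, beside 4.91% of all probes. The median change of the 9 genes was -0.88 on the log2 scale, against 0.01 for all tested genes. In 8 of the 9 genes every knockout array lay below every wild-type array, which held for 13.1% of all tested genes. Calcrl met the detection filter through its wild-type arrays, so its place in these counts rests on the group where it was high. With only probes detected on all 7 arrays, Calcrl was left out, Emcn passed (limma adjusted p = 0.0426) and 5 members were lower. The members were chosen with earlier results of these data known, so these counts are only a description. In whole lung, fewer endothelial cells and less RNA per cell cannot be told apart. The 5 lower genes became 3 without knockout 1 and 3 without knockout 2, since Vwf and Thbd then missed the threshold.

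**Figure D1:**
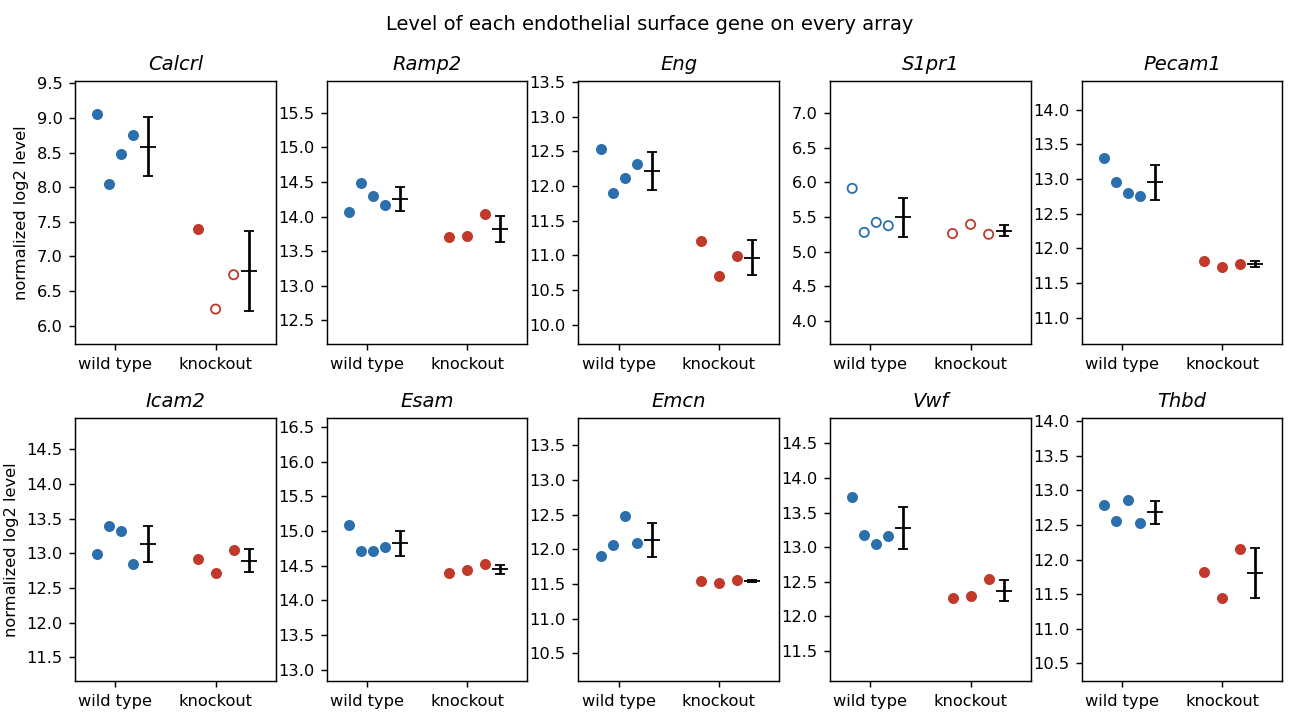
Normalized log2 level of each endothelial surface gene on the 4 wild-type (blue) and 3 knockout (red) arrays, with the brightest probe for Pecam1; open circles are arrays where the probe was not detected, and bars show mean and SD. Every panel spans the same height of log2 units, so the wide gap of Calcrl, Eng and Pecam1 and the narrow gap of Ramp2, Esam and Icam2 can be read against each other, while S1pr1 was detected on 0 arrays.

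The receptors came first because 2 of them form 1 receptor. Calcrl is a G protein-coupled receptor that binds adrenomedullin when paired with Ramp2, a single-pass protein that carries it to the cell surface and sets its ligand preference. Its level, by probe ILMN_1235390, was 7.39, 6.24 and 6.74 on knockout arrays 1 to 3 and 9.05, 8.05, 8.49 and 8.75 on wild-type arrays 1 to 4. The groups did not overlap, and the 2 lowest knockout arrays were not above background, so 1 of 3 knockout arrays detected the probe, as did all 4 of the wild type. Calcrl fell by 1.79 on the log2 scale (SE 0.30, 95% confidence interval -2.47 to -1.11, limma adjusted p = 0.0084), a 3.47-fold difference that includes levels at background. With the authors' values the change was -0.55 (adjusted p = 0.0213), and without background correction it was -0.75 (adjusted p = 0.00945), so its size depends on the processing.

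Ramp2 gave a different picture. Its levels, by probe ILMN_2661422, were 13.71, 13.73 and 14.04 in the knockout and 14.07, 14.48, 14.29 and 14.17 in the wild type. The groups were apart by only 0.03, between knockout 3 and wild type 1. The change was -0.43 (SE 0.17, 95% confidence interval -0.81 to -0.05, limma adjusted p = 0.149), so it did not pass. Set within each array, the Calcrl level less the Ramp2 level changed by -1.37, with values relative to the wild-type mean of -0.64, -1.82 and -1.64 in the knockout and 0.65, -0.76, -0.14 and 0.24 in the wild type. Wild type 2 lay below knockout 1 in this measure, so the groups overlapped.

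Eng, or endoglin, is a co-receptor for BMP9 and TGF-beta on endothelial cells. Its levels, by probe ILMN_1229161, were 11.21, 10.70 and 10.98 in the knockout and 12.53, 11.90, 12.12 and 12.32 in the wild type. The highest knockout array lay 0.69 below the lowest wild-type array. Eng fell by 1.25 (SE 0.20, 95% confidence interval -1.70 to -0.81, limma adjusted p = 0.00723), or 2.38-fold, and it passed in every one of the 14 alternatives run other than the replicate block, with adjusted p from 0.000528 to 0.0379. S1pr1, by probe ILMN_2747124, gave 5.26, 5.39 and 5.25 in the knockout and 5.91, 5.28, 5.42 and 5.37 in the wild type. All 7 of these values were at background and the groups overlapped, so no direction was read from them.

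Of the adhesion molecules, Pecam1 was clearest. PECAM-1, or CD31, binds itself across the contact of neighbouring endothelial cells and is also found on platelets and leukocytes. The brighter probe, ILMN_2700982, gave 11.82, 11.73 and 11.77 in the knockout and 13.30, 12.96, 12.80 and 12.75 in the wild type. The 3 knockout arrays were nearly alike, with an SD of 0.04, and lay 0.93 below the lowest wild-type array. Pecam1 fell by 1.18 (SE 0.17, 95% confidence interval -1.57 to -0.79, limma adjusted p = 0.00541), or 2.26-fold. Its other probe, ILMN_3147074, gave nearly the same fall at a lower brightness, by 1.19 (SE 0.21, adjusted p = 0.0104), again with no overlap. Both probes passed in all 14 alternatives.

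Icam2 and Esam, by contrast, showed small differences. ICAM-2 is an immunoglobulin-family ligand for leukocyte integrins that endothelial cells carry at rest. Its levels, by probe ILMN_2618408, were 12.91, 12.72 and 13.04 in the knockout and 12.99, 13.40, 13.32 and 12.85 in the wild type. The groups overlapped, with wild type 4 below 2 of the knockout arrays. The Icam2 change was -0.25 (SE 0.19, 95% confidence interval -0.66 to 0.17, limma adjusted p = 0.441), so the interval does not reach the estimate for Pecam1. The Pecam1 level less the Icam2 level changed by -0.93, from -0.91, -0.80 and -1.08 in the knockout to 0.50, -0.25, -0.33 and 0.09 in the wild type, a pair chosen after its values were seen and given without a test.

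ESAM is an adhesion molecule of endothelial tight junctions and platelets. By probe ILMN_2690839 its levels were 14.40, 14.43 and 14.52 in the knockout and 15.09, 14.72, 14.72 and 14.77 in the wild type. The groups did not overlap, and wild type 1 stood above the other wild-type arrays. The Esam change was -0.37 (SE 0.16, 95% confidence interval -0.73 to -0.02, limma adjusted p = 0.177). Esam lies on chromosome 9, as does Cldn18, and as do Robo4, Smad6 and Mcam, which are named below. The part of the mixed strain background there was not tested for any of them.

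Endomucin, encoded by Emcn, is a sialomucin of capillaries and veins that hinders leukocyte contact. Its levels, by probe ILMN_1259365, were 11.55, 11.52 and 11.55 in the knockout and 11.90, 12.07, 12.48 and 12.10 in the wild type. The knockout arrays again stood close together, with an SD of 0.02, and all lay below the wild type. The Emcn change was -0.60 (SE 0.17, 95% confidence interval -0.98 to -0.21), and the limma adjusted p of 0.0617 missed the threshold. It passed in 6 of 14 alternatives, among them the authors' values (adjusted p = 0.0266) and the fit without wild type 1 (adjusted p = 0.0403), so Emcn lies at the border of the call.

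The haemostatic genes lay between these extremes. Vwf encodes von Willebrand factor, which tethers platelets and is stored in the Weibel-Palade bodies of endothelial cells and in megakaryocytes. Its levels, by probe ILMN_2519673, were 12.27, 12.30 and 12.54 in the knockout and 13.72, 13.17, 13.05 and 13.17 in the wild type. Wild type 1 was the highest array and the groups did not overlap. Vwf fell by 0.91 (SE 0.19, 95% confidence interval -1.34 to -0.47, limma adjusted p = 0.0213), or 1.88-fold. The adjusted p was 0.0674 without knockout 1 and 0.0916 without knockout 2.

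Thbd encodes thrombomodulin, which turns thrombin from a clotting enzyme into an activator of protein C, and which mesothelial cells also carry. Its levels, by probe ILMN_1249767, were 11.81, 11.44 and 12.15 in the knockout and 12.79, 12.56, 12.86 and 12.52 in the wild type. Here the knockout arrays varied more, with an SD of 0.36, yet all lay below the wild type. Thbd fell by 0.88 (SE 0.20, 95% confidence interval -1.33 to -0.44, limma adjusted p = 0.0256), or 1.84-fold. Leaving out knockout 1 gave an adjusted p of 0.0662 and leaving out knockout 2 gave 0.119. For wild type 1 that value was 0.0501, and for wild type 3 it was 0.0637.

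Whether the members fell alike was asked against other endothelial genes. A panel of 14 such genes was listed, from Cdh5, the cadherin of endothelial junctions, to the angiopoietin receptors Tie1 and Tek, and 9 had a tested probe. Of these 9, Tie1 (-1.58, adjusted p = 0.00779), Flt1 (-1.37, adjusted p = 0.00349), Ptprb (-1.35, adjusted p = 0.00825), Tek (-1.32, adjusted p = 0.00539), Cdh5 (-1.20, adjusted p = 0.00434), Robo4 (-0.95, adjusted p = 0.0352) and Mmrn2 (-0.92, adjusted p = 0.0106) fell, by limma. Egfl7 (-0.57, adjusted p = 0.0597) and Sox18 (-0.34, adjusted p = 0.36) did not pass. Hence 7 of 9 panel genes were lower and 0 higher, beside the 5.11% and 3.68% of all genes, and the panel was uneven too. The panel was listed with earlier results of these data known, so this count is only a description. The other probe for Flt1 gave -0.78 (adjusted p = 0.246) and the other probe for Egfl7 passed at -0.62 (adjusted p = 0.0298). With the authors' values Tie1 changed by -0.76, a smaller fall than those of Flt1 (-1.37) and Tek (-1.27). The Robo4 call was lost without knockout 1, 2 or 3 or wild type 4, at adjusted p from 0.067 to 0.136, and the Mmrn2 call without knockout 2 (adjusted p = 0.0607). Kdr was detected on 1 wild-type array and Erg on 0 arrays, and Clec14a on 2 wild-type arrays, so these 3 were not tested.

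**Figure D2:**
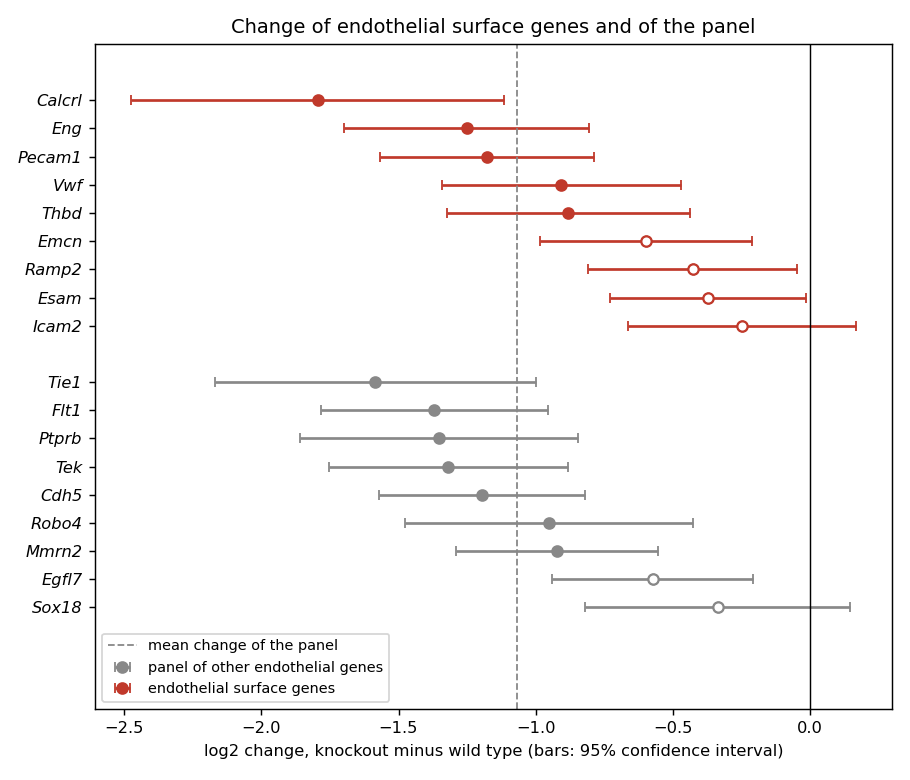
Log2 change of each tested endothelial surface gene (red) and of each tested panel gene (grey), with 95% confidence intervals; open circles did not pass an adjusted p of 0.05, and the dashed line is the mean panel change of -1.07. The intervals of Eng, Pecam1, Vwf and Thbd cross the dashed line, those of Emcn, Ramp2, Esam and Icam2 lie to its right, and that of Calcrl lies to its left; these intervals leave out the panel's own error.

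The mean of the 9 panel genes changed by -1.07, with knockout arrays at -0.96, -1.20 and -1.04 relative to the wild-type mean and wild-type arrays between -0.13 and 0.24. Each probe's level less this panel mean was then fitted with limma over 11891 probes. In that fit most of the array differed from the panel, with 87.0% of probes past an adjusted p of 0.05 (86.5% higher and 0.429% lower), so a member that passed is read only by its size. Icam2 stood 0.82 above the panel's change (SE 0.24, 95% confidence interval 0.30 to 1.34, adjusted p = 0.0069), Esam 0.69 above it (SE 0.18, 95% confidence interval 0.29 to 1.09, adjusted p = 0.00401) and Ramp2 0.64 above it (SE 0.23, 95% confidence interval 0.14 to 1.141, adjusted p = 0.0206). Thus these 3 genes differed less between genotypes than the mean of the panel did. Since that panel was listed with earlier results of these data known, the comparison with it is only a description. For Icam2 and Esam the difference passed in all 15 alternatives other than the replicate block. The Ramp2 difference did not pass without knockout 2 (adjusted p = 0.0576), without knockout 3 (adjusted p = 0.0796) or with no filter on dim probes (adjusted p = 0.0839). Single panel genes changed by -1.58 to -0.34. That range holds Esam (-0.37) and Ramp2 (-0.43) but not Icam2 (-0.25), and this fit leaves out the spread among panel genes.

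Eng (-0.19, 95% confidence interval -0.60 to 0.23, adjusted p = 0.363) and Pecam1 (-0.11, 95% confidence interval -0.52 to 0.30, adjusted p = 0.584) did not differ from the panel's change by this test. Nor did Vwf (0.16, 95% confidence interval -0.26 to 0.59, adjusted p = 0.441), Thbd (0.19, 95% confidence interval -0.28 to 0.66, adjusted p = 0.422) or Emcn (0.47, 95% confidence interval -0.04 to 0.98, adjusted p = 0.0775). Differences inside these intervals remain compatible with the values of these arrays. Emcn passed without wild type 3 (adjusted p = 0.0255) and under a robust fit that let the variance follow the level (adjusted p = 0.0483). Calcrl stood 0.73 below the panel's change in the limma fit (-0.73, SE 0.26, 95% confidence interval -1.29 to -0.17, adjusted p = 0.0186), but this turned with the background correction. Without that correction Calcrl stood 0.19 above the panel (adjusted p = 0.211), and with the authors' values 0.39 above it (adjusted p = 0.0121). It also did not pass without knockout 2 (adjusted p = 0.101), without knockout 3 (adjusted p = 0.0515), with a normexp offset of 50 (adjusted p = 0.0557) or with Pecam1 as the reference (adjusted p = 0.0649). In all, 4 of 9 members passed in this fit, where 87.0% of all probes did. Of these, 3 lay above the panel and 1, Calcrl, lay below it, on a side that turned with the processing. The 4 became 2 without knockout 2 and 2 without knockout 3.

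Among the members, the size of the change also went with the brightness of the probe. The 3 genes that stood above the panel, Icam2, Ramp2 and Esam, had the brightest member probes, with mean log2 levels of 13.03, 14.07 and 14.66, and Calcrl had the dimmest at 7.82. Across the 9 members, which share the same 7 arrays, the Pearson correlation of mean level with change was 0.85, and it was 0.67 without Calcrl. It was 0.48 over the 9 panel genes and 0.06 over all 8537 tested genes. Some genes named below from the pathway, adhesion and segment lists were also brighter than Icam2. By mean level and change, Klf2 (13.80, -1.32), Plvap (13.95, -1.14), Ednrb (13.35, -1.19) and Plpp3 (14.95, -0.815) passed as lower, and Car4 (13.11, -0.49) did not pass. Of 280 genes with a mean level of 14 or more, 2.86% were lower, and the lowest change there was -1.06. Of 669 genes at 13 or more, 4.04% were lower. The part of probe brightness in the small differences of Icam2, Ramp2 and Esam was not tested.

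**Figure D3:**
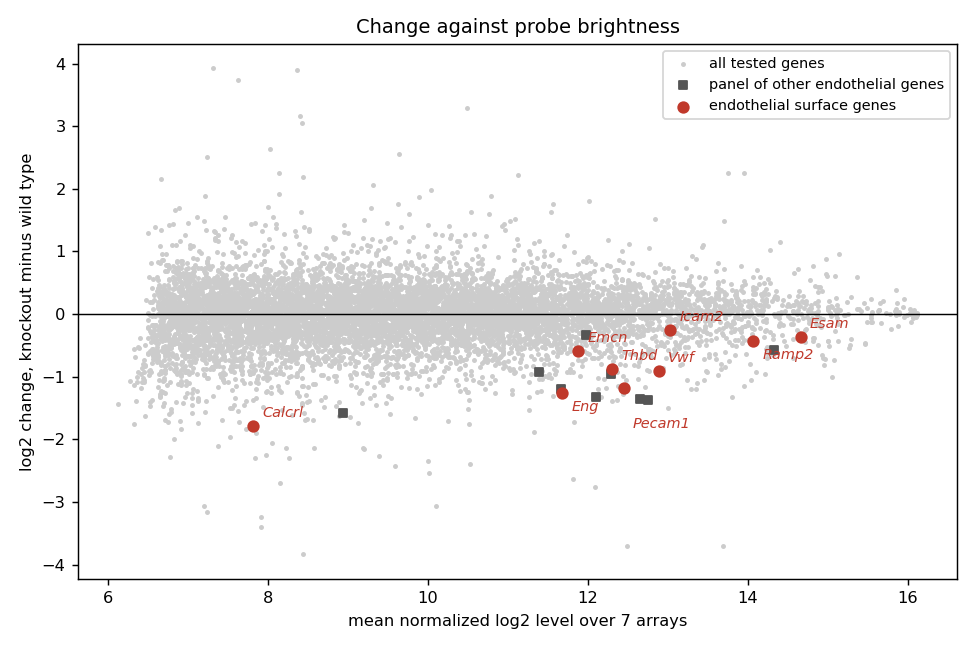
Log2 change against mean normalized log2 level over 7 arrays for all tested genes (light grey), the panel (dark squares) and the endothelial surface genes (red). The members run from Calcrl at the dim end, with a change of -1.79, to Esam and Ramp2 at the bright end, with changes of -0.37 and -0.43.

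The adrenomedullin system around Calcrl and Ramp2 was measured only in part. Of 8 other genes listed, 3 had a tested probe, 0 were lower and 1 was higher, with a median of 0.31. Ramp1, the partner with which Calcrl forms the receptor for the vasodilator peptide CGRP, rose. Its levels were 11.67, 11.87 and 11.66 in the knockout and 9.996, 10.78, 10.49 and 10.29 in the wild type, and the groups lay far apart. Ramp1 rose by 1.34 (SE 0.20, limma adjusted p = 0.00554), or 2.54-fold, and passed in all 14 alternatives. Ramp3 (-0.04, adjusted p = 0.926), the other partner that gives an adrenomedullin receptor, and Ackr3 (0.31, adjusted p = 0.459), which takes up adrenomedullin without signalling through G proteins, did not pass. Of the 3 Ramp genes only Ramp1 passed, and the differences between the 3 were not tested.

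Around endoglin, 3 of 12 tested genes were lower and 1 higher, with a median of -0.43. Tgfbr3, or betaglycan, the co-receptor most like endoglin, fell by 1.46 (SE 0.24, limma adjusted p = 0.00793), and its other probe fell by 1.56 (adjusted p = 0.048). With the authors' values the brighter Tgfbr3 probe changed by -0.82. Smad6, an inhibitory SMAD of the BMP pathway (-0.98, adjusted p = 0.0407), and Acvrl1, or ALK1, the kinase receptor that works with endoglin (-0.70, adjusted p = 0.04), fell as well. Id2, a BMP-induced inhibitor of differentiation, rose by 0.82 (adjusted p = 0.0253), while its relatives Id1 (-0.43, adjusted p = 0.271) and Id3 (-0.67, adjusted p = 0.0989) did not pass. Bmpr2 (adjusted p = 0.0746), which was detected on 0 knockout arrays and at its bound moves the median to -0.35, and Smad5 (-0.43, adjusted p = 0.206) did not pass either. Only Tgfbr3 of these 4 calls held without each array in turn. Acvrl1 was lost in 6 of those 7 fits (adjusted p from 0.0626 to 0.154), in all but the one without wild type 1. Smad6 (0.0744 to 0.146) and Id2 (0.0551 to 0.0905) were lost without knockout 1, 2 or 3 or wild type 2, by adjusted p. Id2 was also lost with median scaling (adjusted p = 0.113), and the other probe for Smad6 gave -0.90 (adjusted p = 0.0902).

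In the sphingosine 1-phosphate pathway, 2 of 9 tested genes were lower and 1 higher, with a median of -0.18. Klf2, a transcription factor switched on by blood flow that drives S1pr1 and Thbd in endothelium, had levels of 13.20, 13.15 and 12.80 in the knockout and 14.26, 14.37, 14.25 and 14.59 in the wild type. It fell by 1.32 (SE 0.17, limma adjusted p = 0.00323), or 2.50-fold, in all 14 alternatives. Plpp3, which breaks down lipid phosphates at the cell surface, fell by 0.81 (adjusted p = 0.016), and its other probe fell by 1.05 (adjusted p = 0.0265). Sphk1, the kinase that makes sphingosine 1-phosphate, rose by 0.90 (adjusted p = 0.0191). Plpp3 missed the threshold when knockout 1 (adjusted p = 0.0575) or knockout 2 (adjusted p = 0.0801) was left out, and with median scaling (adjusted p = 0.0561). Sphk1 missed it when knockout 2 (adjusted p = 0.0605) or knockout 3 (adjusted p = 0.0695) was left out. S1pr4 (-0.71, adjusted p = 0.0681), Sgpp1 (-0.31, adjusted p = 0.444), Sphk2 (-0.18, adjusted p = 0.617) and Sgpl1 (0.16, adjusted p = 0.526) did not pass.

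Among 11 tested genes of endothelial adhesion and junctions other than the members, 3 were lower and 0 higher, with a median of -0.57. Podxl, a sialomucin of the luminal surface (-1.15, adjusted p = 0.0198), Plvap, the diaphragm protein of fenestrae and caveolae (-1.142, adjusted p = 0.00779), and Mcam, or CD146 (-0.86, adjusted p = 0.00779), fell by limma. Plvap held in all 14 alternatives other than the replicate block (adjusted p = 0.0571 with it), whereas the Podxl adjusted p was 0.0508 to 0.0726 without knockout 1, 2 or 3 and that of Mcam was 0.0508 without knockout 2. The other 2 probes for Mcam passed as well, at -1.137 (adjusted p = 0.00812) and -1.02 (adjusted p = 0.0192). Nectin2, which encodes a nectin of cell contacts, gave 0.17 (adjusted p = 0.581) by its brightest probe, while 1 of its other 2 probes was higher at 1.12 (adjusted p = 0.00344) and the last gave 0.22 (adjusted p = 0.429). Cd34 (-0.75, adjusted p = 0.0801), Jam2 (-0.62, adjusted p = 0.133), Selp (0.60, adjusted p = 0.0769) and Vcam1 (-0.57, adjusted p = 0.102) did not pass.

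Of 7 tested genes of vessel wall haemostasis besides Vwf and Thbd, 1 was lower and 0 higher, with a median of -0.59. Angpt2, an angiopoietin stored with von Willebrand factor in Weibel-Palade bodies, fell by 1.09 (SE 0.18, limma adjusted p = 0.00725), in all 14 alternatives. Klf4, a relative of Klf2 that also drives Thbd, gave -1.0 (adjusted p = 0.11) by its brightest probe, while its other 2 probes passed at -1.05 and -1.13. Nos3, the endothelial nitric oxide synthase, gave -0.71 (adjusted p = 0.139), and 1 of its other 2 probes passed at -0.77. Tfpi (-0.59, adjusted p = 0.261) and S100a10 (0.37, adjusted p = 0.318) did not pass.

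**Figure D4:**
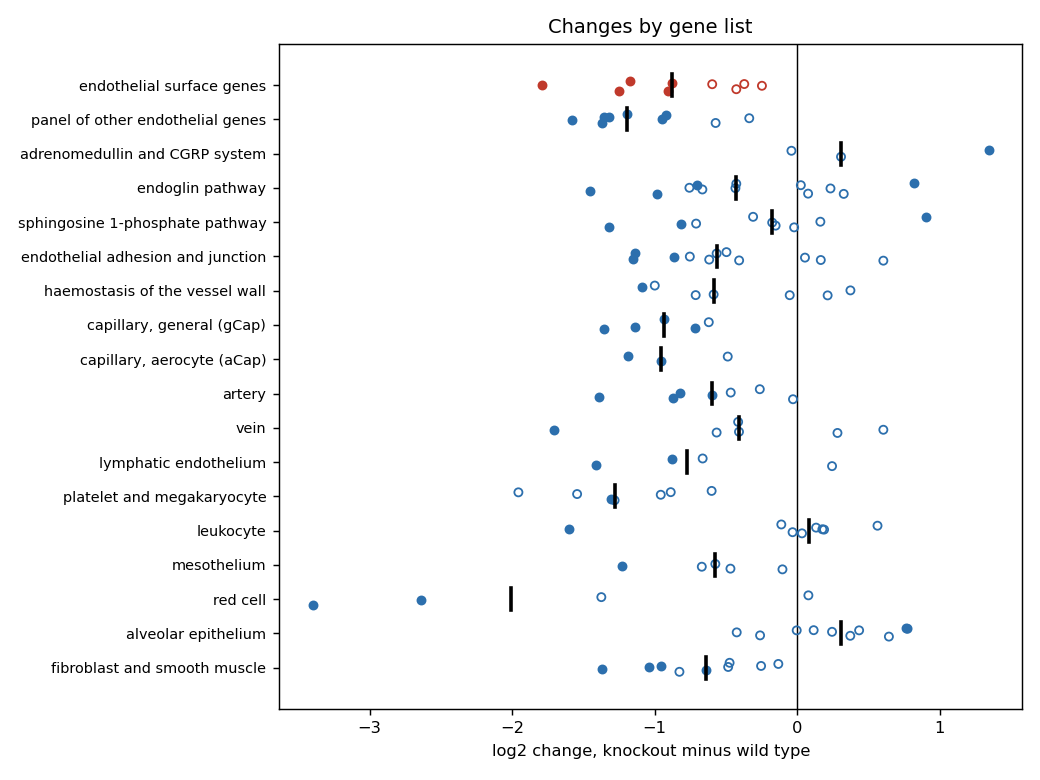
Log2 change of every tested gene of the endothelial surface genes (red, top row) and of each other list (blue), with filled points past an adjusted p of 0.05 and a black bar at the median; changes are as fitted, also for 4 genes detected on 0 knockout arrays (Ephb4, Gp1bb, Lrrn4 and Bmpr2). The endothelial rows lie mostly below 0, the leukocyte row, Cd79a apart, and the alveolar epithelium row lie around or above it, and Ramp1 is the highest point of its row at 1.34.

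Vessel segments were compared because the members are not spread evenly over them, Emcn and Vwf being richest in capillaries and veins or in larger vessels. Markers of general capillary cells had 4 of 5 tested genes lower (median -0.93), with Ptprb, Plvap and Aplnr (-0.93) the largest changes, and aerocyte markers had 2 of 3 lower (median -0.96), Ednrb at -1.19 and Tbx2 at -0.96, with Car4 at -0.49 not past the threshold. Arterial markers had 4 of 7 lower (median -0.60), led by the connexin Gja5 at -1.39, with Dll4 at -0.87 and Efnb2 at -0.82. Other probes for Gja5 gave -1.25 (limma adjusted p = 0.00287) and -0.75 (adjusted p = 0.138). The remaining arterial call was Cxcl12 (-0.60, adjusted p = 0.0418), whose other probes gave -0.12 (adjusted p = 0.737) and 0.60 (adjusted p = 0.179). Venous markers had 1 of 6 lower (median -0.41), which was Ephb4, and lymphatic markers had 2 of 4 lower (median -0.77), with Reln at -1.41 and Lyve1 at -0.88. The Ephb4 probe was detected on 0 of 3 knockout and 4 of 4 wild-type arrays, so it met the filter through the wild type alone. On the background-corrected scale Ephb4 was at least 1.48-fold lower. Such a bound sets the wild-type mean against the lowest level detected on each knockout array, and holds only on that scale. The limma adjusted p of 0.00462 belongs to the fitted Ephb4 change of -1.71, and with the authors' values the change was -0.37. Dll4 and Efnb2 were detected on 1 of 3 knockout arrays each. None of these lists had a gene that was higher past the threshold, where 3.68% of all tested genes were higher and 5.11% lower. With so few genes, the lack of a higher gene says little. Ptprb also counts in the panel, and Plvap, Vcam1 and Selp in the adhesion list. Single calls were not all stable: without knockout 2 the adjusted p was 0.0516 for Aplnr and 0.0547 for Tbx2, Efnb2 was lost without knockout 2, knockout 3 or wild type 2 (0.0502 to 0.0988), Dll4 without any 1 of the 7 arrays (0.0541 to 0.146) and Lyve1 without any 1 array but knockout 3 (0.0575 to 0.189). The authors' values also gave an adjusted p of 0.148 for Dll4 and 0.0911 for Efnb2, and a change of -0.69 for Reln.

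Other cells that carry some members were measured beside them. Platelet and megakaryocyte genes, whose cells also hold Vwf, Pecam1 and Esam, had 1 of 7 tested genes lower, Gp5 at -1.31 (adjusted p = 0.0278), with a median of -1.28, and Treml1 (adjusted p = 0.0617) and Gp1bb (adjusted p = 0.0872) did not pass. Treml1 was detected on 1 knockout array and Gp1bb on 0. With Gp1bb at its bound of at least 2.33-fold on the background-corrected scale, the median was -1.22. With the authors' values Gp1bb changed by -0.51. Their mean level relative to the wild-type mean ran from -1.53 to -0.87 in the knockout and from -1.003 to 0.67 in the wild type, so the groups overlapped. The Gp5 call was lost without knockout 1, knockout 2, wild type 1 or wild type 4 (adjusted p from 0.0621 to 0.11). It was also lost with the authors' values (-0.54, adjusted p = 0.0562) and with no filter on dim probes (adjusted p = 0.0523). Without wild type 3, Treml1 (0.00317) and Gp1bb (0.00416) passed, by adjusted p. Leukocyte genes, whose cells also hold Pecam1 and Icam2, had 1 of 8 lower, the B cell gene Cd79a at -1.60 (adjusted p = 0.00168), with a median of 0.08 and mean levels from -0.14 to 0.00 in the knockout and from -0.16 to 0.21 in the wild type.

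Mesothelial genes, for the Thbd of those cells, had 1 of 5 lower, Lrrn4 (adjusted p = 0.0281), with a median of -0.57 and mean levels from -0.79 to -0.40 in the knockout and from -0.12 to 0.07 in the wild type. Lrrn4 was detected on 0 of 3 knockout and 3 of 4 wild-type arrays, so it met the filter through the wild type alone. On the background-corrected scale it was at least 1.09-fold lower, and with it at that bound the median was -0.47. It did not pass with the authors' values (-0.25, adjusted p = 0.103), without background correction (-0.38, adjusted p = 0.0661) or with no filter on dim probes (adjusted p = 0.0524). The Lrrn4 call was also lost in 5 of the 7 fits that left out an array (0.0643 to 0.0969). Fibroblast and smooth muscle genes had 4 of 9 lower and 0 higher, with a median of -0.64, and mean levels from -0.80 to -0.54 in the knockout and from -0.07 to 0.10 in the wild type. Pdgfrb (-1.37, adjusted p = 0.0129), Pdgfra (-1.04, adjusted p = 0.0231) and Myh11 (-0.95, adjusted p = 0.0212) were the largest. By the authors' values their changes were -0.60, -1.04 and -0.62. All 3 missed the threshold without knockout 2 (0.0607, 0.067 and 0.0977). Pdgfra also missed it without knockout 1, knockout 3 or wild type 3 (0.0546 to 0.0827), and Myh11 without knockout 1 (0.0548). Red cell genes had 2 of 4 lower, Trim10 and Slc4a1 (-2.64), and their mean ran from -2.59 to -1.29 in the knockout and from -0.71 to 0.58 in the wild type. The Trim10 probe was detected on 1 of 3 knockout arrays, its change was -3.40 as fitted and -1.16 with the authors' values, and its other probe did not pass (-1.40, adjusted p = 0.0623). Alveolar epithelial genes had 0 of 10 lower and 1 higher, Sftpa1 at 0.76 (adjusted p = 0.0246), with a median of 0.31. That call was lost in 5 of the 7 fits that left out an array (0.0522 to 0.0988). Aqp5, a water channel of alveolar type 1 cells, gave 0.77 (adjusted p = 0.0597), passed in 6 of 14 alternatives, and was higher by its other probe at 1.11 (adjusted p = 0.0184). Lamp3, of type 2 cells, gave 0.64 (adjusted p = 0.221). The part of these other cells in the changes of the members was not tested.

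Within a genotype the correlations between members varied widely. They rest on 7 arrays and no other gene pairs were set beside them, so they are only a description. After each genotype's mean was subtracted, the correlation between members over the 7 arrays ran from -0.71 to 0.98 across 36 pairs, with a median of 0.31, and 21 pairs were above 0. Knockout 2 was the lowest knockout array for Calcrl, Eng, Thbd, Icam2, Pecam1 and Emcn, and wild type 1 the highest wild-type array for Calcrl, Eng, Pecam1, Vwf and Esam. Relative to the wild-type mean, the median of the 9 members was -0.87, -0.98 and -0.58 on the 3 knockout arrays, so knockout 3 was the least shifted. The genes outside the list whose levels followed the members' mean most closely over the 7 arrays, again within genotypes, were Traf2 (r = 0.992), Dhh (r = 0.988), Stard5 (r = 0.985), Ugt8a (r = 0.978) and Unc45b (r = 0.976). With 7 arrays these are given only as a description.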

How the data were processed

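RNA came from Trizol homogenates of whole lung, and 1 µg went into labelling, per the labels. Per the file headers, the deposited signal table holds a linear bead intensity and a detection p-value for every probe and array, and the software behind it is not given in the sources used here. A second deposited table holds the authors' log2-like values. The submitters' processing notes name lumi 1.14.0 and R 2.11.1. Those values had the same median, 8.65, on all 7 arrays, their exact transformation is unknown, and they served as an alternative. A knockout array numbered 4 was not among the 7 arrays used here, and the deposited values held 0 columns of other samples.

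In R 4.3.3 with limma 3.58.1, neqc used the detection p-values for background correction, with an offset of 16, quantile-normalized and took log2. Probes with a detection p under 0.01 in 3 or more samples were kept. The arrays of 1 genotype alone could keep a probe, which then leans toward a higher level in that genotype. The genotype difference was fitted by lmFit and eBayes, and p-values were adjusted over every kept probe by the Benjamini-Hochberg method. Change is knockout minus wild type. A gene stands for its brightest probe. Probes were named from the platform annotation, in which 23978 of 25697 had 1 symbol, 0 several and 1719 none. Exact permutation p-values use all 35 splits, so the smallest possible is 0.0286. The text names all member genes, the genes of the panel and of the pathway, adhesion and haemostasis lists that passed with up to 4 per list that did not, up to 3 genes of each segment or cell type list by size of change, Cldn18, and the 5 genes closest to the members' mean. Cxcl12 and Nectin2 are named besides because their probes differed. The members and lists were chosen with earlier results of these data known. Same-numbered arrays were checked for pairing. Alternatives changed the normalization, background, offset, filter, variance model and values, left out each array, added the replicate block and used Pecam1 as reference.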

Additional observations from a re-analysis of the deposited data

Results flagged for a closer look

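Of the wild-type groups of 11 member probes, 1 held an array far from the others. The Esam level was 15.09 in wild type 1, while wild types 2 to 4 gave 14.72, 14.72 and 14.77. Chance alone marks about 1 in 20 such groups.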

How the results depend on the processing

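The direction of the member probes was below 0 in all 149 alternative values, and 135 stayed on the same side of the threshold, while 8 lost and 6 gained the call. Leaving out 1 array at a time gave 333 to 999 probes past the threshold, 3 to 5 members lower, 5 to 7 panel genes lower and 2 to 5 members that differed from the panel. The count of probes moved by over 1.5 times when knockout 1 (701), knockout 2 (333), knockout 3 (513) or wild type 2 (688) was left out. Same-numbered arrays did not vary together (correlations of -0.02, -0.00 and -0.14 for numbers 1, 2 and 3, and 0 of 3 knockout arrays was closest to its own number). With the replicate block, 401 probes passed, 3 members were lower, and Vwf (adjusted p = 0.0787) and Thbd (adjusted p = 0.0555) did not pass, nor did 18 other named genes that pass without it, Plvap (adjusted p = 0.0571) among them. The median change of all kept probes, knockout minus wild type, was -0.14 after median scaling and 0.02 after quantile normalization. Relative to the panel, Calcrl turned to 0.19 without background correction and to 0.39 with the authors' values, and Vwf to -0.019 with no filter. Near-zero values that turned were Cd53 at -0.023 and Sgpl1 at -0.029 with median scaling, and Ramp3 at 0.003 with the replicate block and from -0.243 to 0.141 without 1 array. The cause of these turns was not tested. Dim probes such as Calcrl are limited by background.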
